A study of Mus musculus with 12 samples.

Results

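The mitosis and spindle genes were a given list of 37 genes whose proteins condense chromosomes, build the spindle, attach chromosomes to it and divide the cell. A gene was taken as measured where the array annotation gave a row that symbol alone, and the row with the highest mean over the 12 arrays was used. This left 36 of the 37 genes, of 19938 single-symbol genes in the series. No row carried the symbol of Ccnb1 alone, and that gene was dropped.

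The series measured endometrial RNA of CBAF1 female mice, the F1 of CBA and C57Bl/6, aged 9 to 16 weeks, on Affymetrix Mouse Gene 1.0 ST arrays. The control group was unmated virgin females, the intact-mated group had mated with intact BALB/c males, and the vasectomised-mated group with BALB/c males vasectomised at 6 to 8 weeks of age, so that their ejaculate carried seminal plasma without sperm. Males were 12 to 28 weeks old. Each group held 4 arrays, made from pools of 4 females (16 females in a group). Mated females were killed 8 h after mating. Controls were collected on the evening of pro-estrus by the design text, although their labels call them estrus. Mating and the hours of the cycle that separate controls from mated females therefore cannot be told apart in either comparison with controls, and both comparisons used the same 4 control arrays. Because the pools came from separate females, the spread between arrays is a spread between pools, in which the range over single animals is averaged.

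Mitosis is driven by cyclin-dependent kinase CDK1 with cyclins A and B. Its genes are transcribed late in the cell cycle and are near silent in resting cells, so their RNA is widely read as a sign of dividing cells. In the rodent uterus the luminal and glandular epithelium divides under the estrogen surge that precedes ovulation, and division ceases there as progesterone rises. In bulk RNA, fewer dividing cells and less of each transcript per cell cannot be told apart.

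In the intact-mated endometrium 32 of the 36 genes were lower than in controls and none was higher. A gene was called when its fold-change was at least 1.5 and its Benjamini-Hochberg adjusted p from limma, fitted over all 35556 rows of the array table, was at most 0.05. By that rule 1.55% of all rows were lower and 1.95% higher. All 36 log2 fold-changes were below 0, from -2.57 for Bub1 to -0.18 for Incenp, with a median of -1.68 beside a median of 0.01 over all rows, and 48.4% of all rows were below 0. An unadjusted limma p under 0.05 with the level lower was found for 33 of 36, where 11.1% of all rows had one. The fall was at least 2-fold in 31 genes. The 4 genes not called were Melk, Birc5, Incenp and Kif23.

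After vasectomised mating the same genes lay between the other 2 groups in 33 of 36 means, but only Mad2l1 was called lower, where 0.439% of all rows were. The median log2 fold-change from controls was -1.11, 35 of 36 values were below 0 (47.4% of all rows), and 33 of 36 had an unadjusted limma p under 0.05 with the level lower (7.09% of all rows). Between the mated groups no gene was called in either direction. The control arrays differed widely among themselves, and both counts changed with the arrays used. Without control 1, 29 of the 36 genes were called lower after vasectomised mating, where 0.866% of all rows were, and 33 of 36 after intact mating, where 1.68% were. The vasectomised-mated count was 0 without control 4, vasectomised 2 or vasectomised 4, where 0.264% to 0.298% of all rows were lower. The intact-mated count was 18 to 23 without control 2, control 4, intact 1, intact 3 or intact 4, where 1.14% to 1.47% were.

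**Figure D1:**
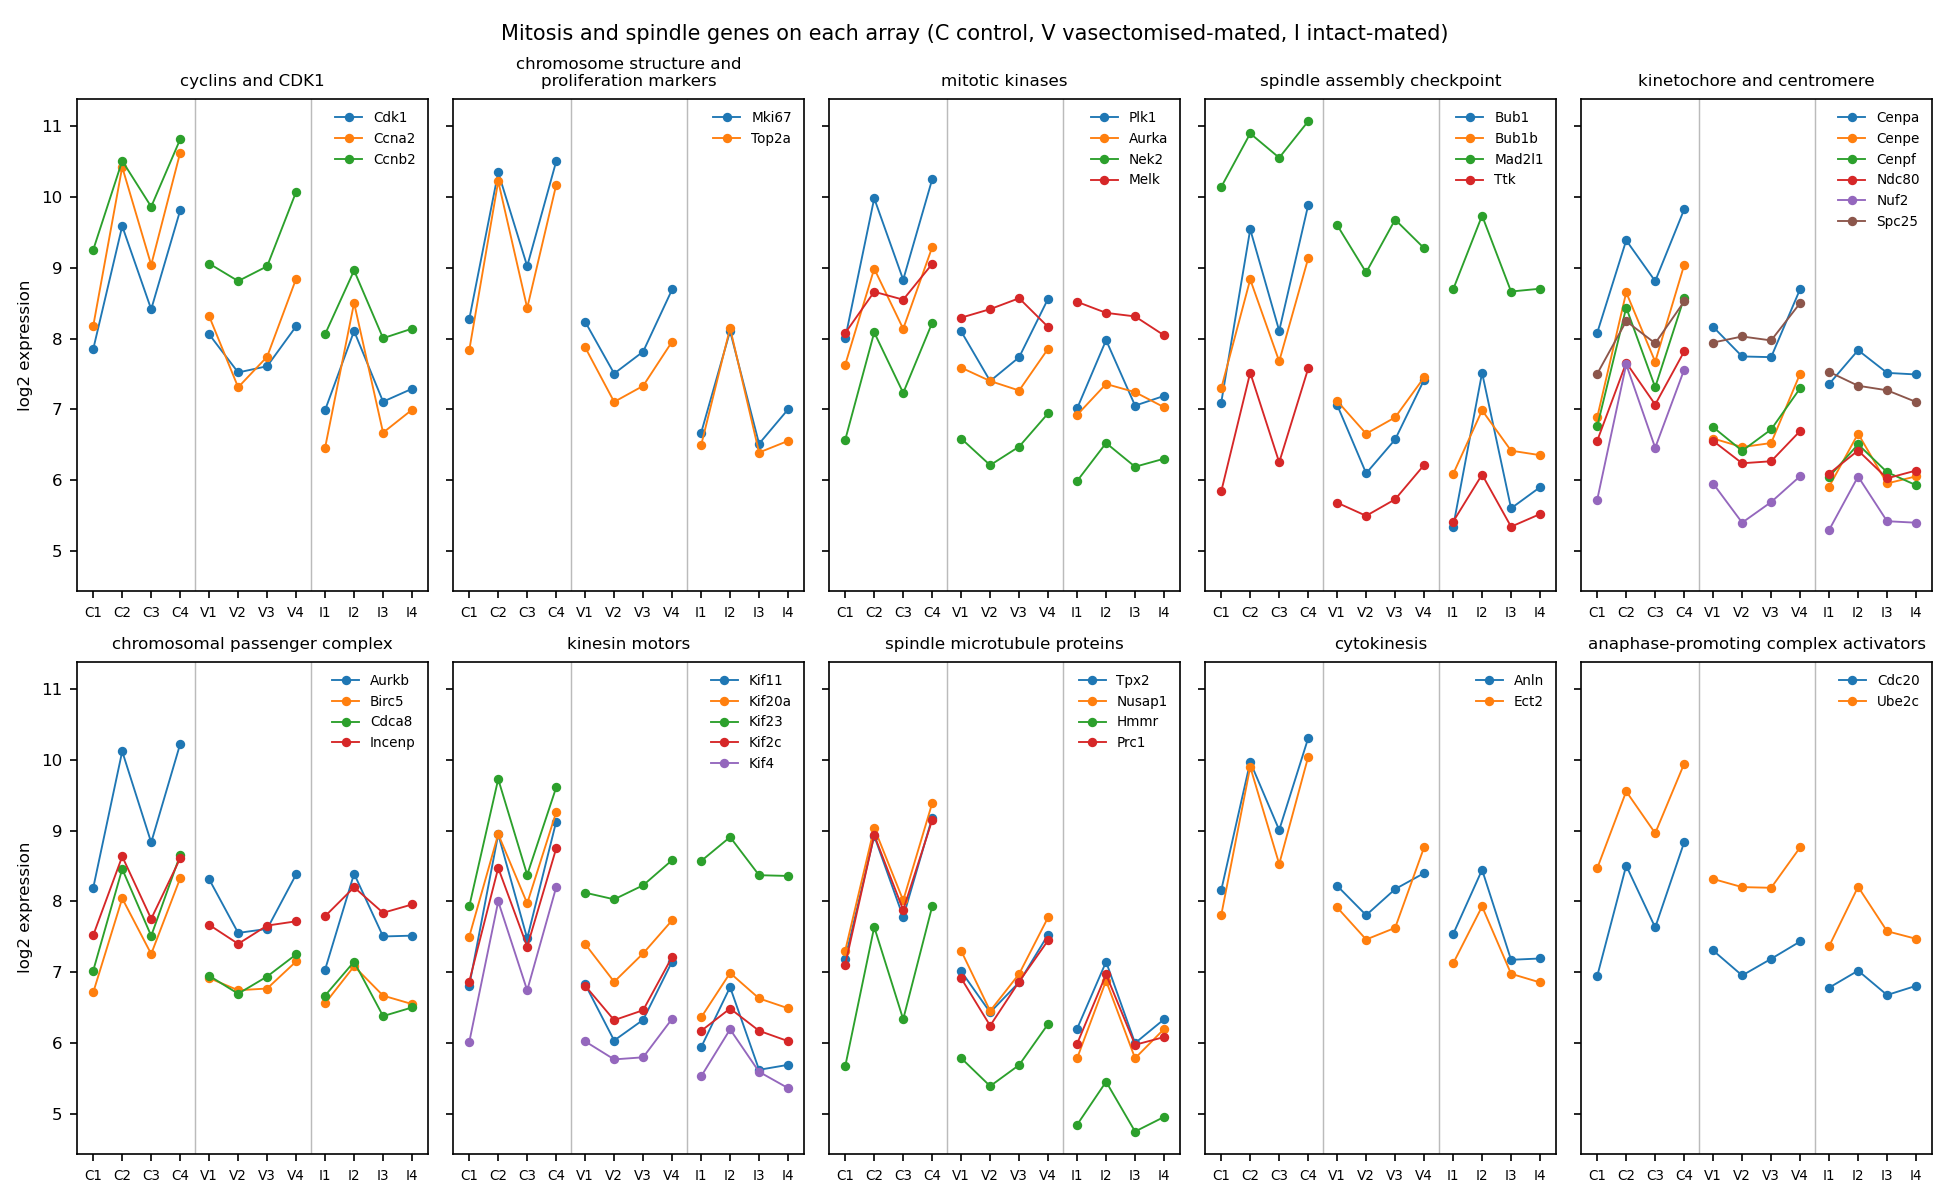
Log2 expression (vertical axis) of the 36 genes on each of the 12 arrays, grouped by role. C, V and I stand for control, vasectomised-mated and intact-mated arrays, each number is a replicate pool, and lines only join the values of 1 gene within a group. Controls 2 and 4 are the 2 highest controls in all 36 genes, and intact 2 is the highest intact array in 34.

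Cyclins and CDK1 came first in the order of events. Cdk1, Ccna2 (cyclin A2) and Ccnb2 (cyclin B2) were all called lower after intact mating, with log2 fold-changes of -2.41 to -1.54. Ccna2 read 8.18, 10.42, 9.04 and 10.63 in controls 1 to 4, 6.46, 8.50, 6.67 and 7.0 in intact 1 to 4, and 8.32, 7.31, 7.74 and 8.84 in vasectomised 1 to 4. Cdk1, the kinase itself, read 7.85, 9.59, 8.41 and 9.81 in controls, 6.99, 8.11, 7.11 and 7.29 after intact mating, and 8.06, 7.52, 7.61 and 8.17 after vasectomised mating. In both genes controls 2 and 4 stood above every other array, intact 2 was above control 1, and the intact and control groups overlapped through that pair alone. Ccna2 was 5.31-fold lower after intact mating (log2 fold-change -2.41, SE 0.57, limma adjusted p 0.0186) and Cdk1 2.91-fold lower (-1.54, SE 0.39, adjusted p 0.0262). Ccnb2 did not overlap between these groups, with controls from 9.25 to 10.81 and intact arrays from 8.01 to 8.96.

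After vasectomised mating none of the 3 was called. The log2 fold-changes were -1.51 for Ccna2 (limma adjusted p 0.175), -1.07 for Cdk1 (0.16) and -0.87 for Ccnb2 (0.208).

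Genes of this phase often carry a CHR element, TTTGAA, and CCAAT boxes bound by NF-Y near their start, which recruit the complexes that silence them in resting cells and switch them on before division. The promoters of the 2 measured cyclin and CDK genes and 2 anaphase-promoting complex genes that the RefSeq table for GRCm38.p6 holds are shown here because they let a reader see these elements in genes that fell together. Each line gives the 150 bases that precede the annotated start, 5′ to 3′ along the gene, with TTTGAA and CCAAT in capitals on either strand (TTCAAA and ATTGG on the other strand).
Cdk1 (chr10:69352913-69353062, minus strand): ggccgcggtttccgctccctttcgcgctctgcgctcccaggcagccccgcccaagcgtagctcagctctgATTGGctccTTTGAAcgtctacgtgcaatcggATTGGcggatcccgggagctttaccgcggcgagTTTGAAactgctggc
Ccnb2 (chr9:70421555-70421704, minus strand): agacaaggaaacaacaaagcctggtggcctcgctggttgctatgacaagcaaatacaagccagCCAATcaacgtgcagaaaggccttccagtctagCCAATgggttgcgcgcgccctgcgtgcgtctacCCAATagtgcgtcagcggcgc
Cdc20 (chr4:118437344-118437493, minus strand): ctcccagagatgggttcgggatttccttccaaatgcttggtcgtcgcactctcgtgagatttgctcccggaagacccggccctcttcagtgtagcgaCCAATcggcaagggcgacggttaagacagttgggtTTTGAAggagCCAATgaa
Ube2c (chr2:164769779-164769928, plus strand): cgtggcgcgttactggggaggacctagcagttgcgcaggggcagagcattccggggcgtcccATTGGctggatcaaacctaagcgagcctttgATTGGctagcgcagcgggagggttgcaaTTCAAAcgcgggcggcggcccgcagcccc

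All 4 stretches held CCAAT and those of Cdk1, Cdc20 and Ube2c held TTTGAA. In Ccnb2 the TTTGAA matches lay outside the stretch, farther before the start and just after it. Over windows of 250 bases before to 50 bases after the start, TTTGAA on either strand stood in 23 of the 31 measured genes that the table holds (74.2%), against 20.2% of 27018 genes. CCAAT stood in 23 of 31 (74.2%) against 41.1%, and both in 20 of 31 (64.5%) against 7.97%. A match is a run of letters and was not tested for binding. Among 65 other mitotic genes 58.5% held TTTGAA and among 32 DNA replication genes 15.6% did. The table also holds Ccnb1, which was not measured and is left out of these shares; its window held CCAAT and no TTTGAA. Promoters of Ccna2, Aurkb, Incenp, Kif20a and Tpx2 were not analysed here.

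The chromosome structure genes gave some of the widest changes. Mki67, which coats mitotic chromosomes and encodes the marker Ki-67, read 8.27, 10.35, 9.02 and 10.50 in controls, 6.67, 8.11, 6.51 and 7.0 after intact mating, and 8.24, 7.51, 7.82 and 8.69 after vasectomised mating. Top2a, the topoisomerase that untangles sister chromatids, read 7.83, 10.22, 8.43 and 10.17, then 6.49, 8.15, 6.39 and 6.55, then 7.88, 7.11, 7.33 and 7.96 in the same order of groups. Every intact array of Mki67 was below every control, whereas intact 2 of Top2a was above control 1. Mki67 was 5.52-fold lower after intact mating (log2 fold-change -2.46, SE 0.49, limma adjusted p 0.00689) and Top2a 4.82-fold lower (-2.27, SE 0.54, adjusted p 0.0186). Top2a had a second single-symbol row of low signal, whose log2 fold-change was -0.55 and which did not reach a 1.5-fold change, although its adjusted p was 0.015.

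Of 4 mitotic kinases, Plk1, Aurka and Nek2 were called lower after intact mating, and no intact array of the 3 reached a control array. Plk1, which acts from mitotic entry to cytokinesis, read 8.00, 9.98, 8.83 and 10.25 in controls, 7.01, 7.98, 7.05 and 7.19 in intact arrays, and 8.10, 7.40, 7.74 and 8.56 in vasectomised arrays. Its log2 fold-change was -1.96 after intact mating (SE 0.44, limma adjusted p 0.0134), and intact 2 lay only just below control 1. Melk, a kinase often counted with this set, read 8.08, 8.66, 8.55 and 9.05, then 8.52, 8.36, 8.31 and 8.05, then 8.30, 8.42, 8.57 and 8.16. All 3 groups of Melk overlapped, and its log2 fold-changes of -0.28 and -0.22 had limma adjusted p of 0.398 and 0.542.

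All 4 spindle assembly checkpoint genes, whose products hold back anaphase until every chromosome is attached, were called lower after intact mating. Bub1, a checkpoint kinase, had the widest change of the 36, with 7.10, 9.54, 8.11 and 9.88 in controls, 5.34, 7.52, 5.60 and 5.90 after intact mating, and 7.06, 6.10, 6.57 and 7.42 after vasectomised mating. Ttk, the kinase MPS1, read 5.84, 7.52, 6.25 and 7.58, then 5.41, 6.08, 5.34 and 5.52, then 5.68, 5.50, 5.73 and 6.21. In both genes intact 2 was above control 1 and the other intact arrays were below every control. Bub1 was 5.93-fold lower (log2 fold-change -2.57, SE 0.60, limma adjusted p 0.0176) and Ttk 2.31-fold lower (-1.21, SE 0.35, adjusted p 0.0477).

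Mad2l1 encodes MAD2, the checkpoint protein that binds and restrains CDC20, and was the single gene called in both comparisons with controls. It read 10.14, 10.90, 10.55 and 11.07 in controls, 8.69, 9.74, 8.66 and 8.70 after intact mating, and 9.60, 8.93, 9.68 and 9.28 after vasectomised mating. All 8 mated arrays lay below all 4 controls. The log2 fold-change was -1.72 after intact mating (SE 0.27, limma adjusted p 0.00136) and -1.29 after vasectomised mating (SE 0.27, adjusted p 0.0183), and the exact permutation p was 0.0286 for each, the smallest that 4 arrays against 4 can give. Its control SD was 0.41, below its intact SD of 0.52, which set it apart from the other 35 genes. The vasectomised-mated call was lost without control 4 (limma adjusted p 0.0565), without vasectomised 2 (0.055) and without vasectomised 4 (0.0549).

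The 6 kinetochore and centromere genes were all called lower after intact mating. Cenpe, a kinesin-like motor of the kinetochore, read 6.89, 8.65, 7.67 and 9.04 in controls, 5.91, 6.66, 5.95 and 6.05 in intact arrays, and 6.59, 6.47, 6.52 and 7.50 in vasectomised arrays. Every intact array was below every control, and its log2 fold-change of -1.92 (SE 0.40, limma adjusted p 0.00938) was the widest of this group. Cenpa, the centromeric histone H3 variant, Cenpf and Ndc80 likewise did not overlap between intact-mated and control arrays, with log2 fold-changes of -1.48, -1.62 and -1.11. Nuf2, the partner of NDC80, had -1.30 with overlap through intact 2.

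Spc25, a subunit of the same NDC80 complex, followed another order. It read 7.50, 8.25, 7.93 and 8.52 in controls, 7.53, 7.33, 7.27 and 7.10 after intact mating, and 7.94, 8.03, 7.97 and 8.50 after vasectomised mating. Vasectomised arrays were level with controls, and every intact array was below every vasectomised one, as in 7.34% of all rows. The log2 fold-change from controls was -0.74 after intact mating (SE 0.19, limma adjusted p 0.0301) and 0.06 after vasectomised mating (adjusted p 0.907), and the mated groups differed by -0.80 (SE 0.19, adjusted p 0.0529), just above the threshold. The intact call was lost, with adjusted p of 0.0631 to 0.089, without control 2, control 4, intact 2, intact 3 or intact 4. Its relatives in the complex, Ndc80 and Nuf2, differed between the mated groups by -0.27 (adjusted p 0.6) and -0.23 (adjusted p 0.8).

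The chromosomal passenger complex corrects faulty attachments and steers cytokinesis, and it was split. Aurkb, its kinase, and Cdca8 (borealin) were called lower after intact mating, while Birc5 (survivin) and Incenp, the scaffold, were not. Aurkb read 8.19, 10.12, 8.83 and 10.22 in controls, 7.04, 8.39, 7.50 and 7.52 in intact arrays, and 8.31, 7.55, 7.61 and 8.38 in vasectomised arrays. Incenp read 7.52, 8.63, 7.75 and 8.61, then 7.79, 8.20, 7.84 and 7.96, then 7.67, 7.40, 7.66 and 7.72. Aurkb fell by 1.73 on the log2 scale after intact mating (SE 0.43, limma adjusted p 0.0239), and its groups overlapped through intact 2. The intact arrays of Incenp lay inside the control range and all above the vasectomised arrays, which 6.62% of all rows also showed, but the difference of 0.33 between the mated groups was not called (adjusted p 0.48). Birc5 had a log2 fold-change of -0.87 (adjusted p 0.0757).

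Kinesin motors slide spindle microtubules and carry proteins to the midzone. Of 5, Kif11, Kif20a, Kif2c and Kif4 were called lower after intact mating and Kif23 was not. Kif11, the Eg5 motor that pushes spindle poles apart, read 6.81, 8.95, 7.48 and 9.13 in controls, 5.94, 6.79, 5.62 and 5.69 after intact mating, and 6.83, 6.03, 6.33 and 7.15 after vasectomised mating. Kif23, the MKLP1 motor of the central spindle, read 7.93, 9.73, 8.37 and 9.61, then 8.57, 8.91, 8.37 and 8.36, then 8.12, 8.03, 8.23 and 8.58. Kif11 did not overlap between intact-mated and control arrays, and its log2 fold-change was -2.08 (SE 0.47, limma adjusted p 0.015). Control 1 of Kif23 was the lowest of its 12 arrays, below all 8 mated arrays, and its fold-changes of -0.36 and -0.67 had adjusted p of 0.609 and 0.318.

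The 4 spindle microtubule proteins, Tpx2, Nusap1, Hmmr and Prc1, were all called lower after intact mating, and none overlapped between intact-mated and control arrays. Nusap1, which bundles spindle microtubules, read 7.31, 9.04, 8.01 and 9.39 in controls, 5.78, 6.88, 5.78 and 6.20 after intact mating, and 7.30, 6.45, 6.98 and 7.77 after vasectomised mating. Tpx2, the activator of aurora A on the spindle, read 7.19, 8.93, 7.78 and 9.18, then 6.20, 7.15, 6.0 and 6.33, then 7.01, 6.43, 6.86 and 7.53. In both genes the vasectomised arrays straddled control 1. Nusap1 was 4.84-fold lower (log2 fold-change -2.27, SE 0.43, limma adjusted p 0.00499) and Tpx2 3.60-fold lower (-1.85, SE 0.41, adjusted p 0.0128) after intact mating.

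Cytokinesis genes and activators of the anaphase-promoting complex act as division ends, and all 4 of these genes were called lower after intact mating. Ect2, the exchange factor that places the contractile ring, read 7.80, 9.90, 8.53 and 10.04 in controls, 7.12, 7.93, 6.98 and 6.85 in intact arrays, and 7.91, 7.46, 7.63 and 8.76 in vasectomised arrays. Anln (anillin), the scaffold of that ring, read 8.16, 9.97, 9.01 and 10.30, then 7.54, 8.45, 7.17 and 7.19, then 8.22, 7.81, 8.17 and 8.40. Intact 2 of both genes was above control 1, and vasectomised 4 of Ect2 was above control 3 too. The log2 fold-changes after intact mating were -1.85 for Ect2 (limma adjusted p 0.0248) and -1.77 for Anln (adjusted p 0.0165).

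Ube2c, the conjugating enzyme of the anaphase-promoting complex, read 8.47, 9.55, 8.96 and 9.94 in controls, 7.37, 8.21, 7.58 and 7.47 after intact mating, and 8.32, 8.20, 8.19 and 8.76 after vasectomised mating. Cdc20, its activator at anaphase, read 6.95, 8.51, 7.63 and 8.84, then 6.78, 7.02, 6.68 and 6.81, then 7.31, 6.95, 7.19 and 7.43. Ube2c did not overlap between intact-mated and control arrays, and Cdc20 did through intact 2 alone. The fall was 2.98-fold for Ube2c (limma adjusted p 0.00365) and 2.23-fold for Cdc20 (adjusted p 0.0362).

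**Figure D2:**
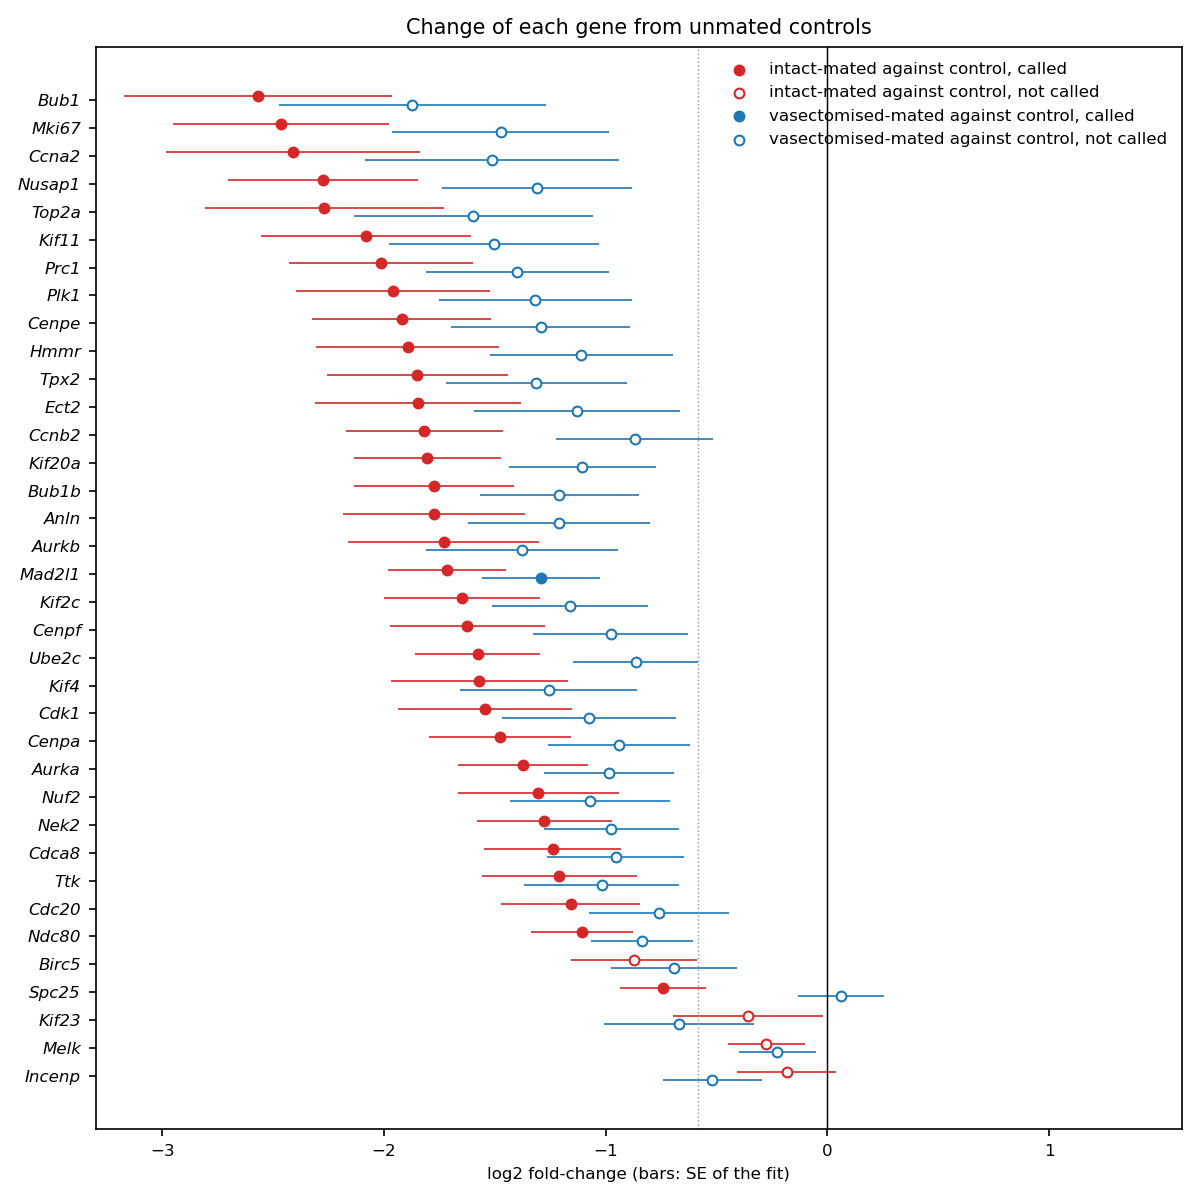
Log2 fold-change from controls (horizontal axis) of each of the 36 genes after intact mating (red) and vasectomised mating (blue), with bars of 1 SE of the limma fit and the dotted line at a 1.5-fold fall. Filled points are called genes, 32 in red and 1 in blue, and the points of all genes but Spc25 in blue lie below 0.

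Counted over all genes, every intact array was below every control in 19 of 36, where 6.18% of all rows showed this. Of the 13 genes called lower that overlapped, 12 did so solely because intact 2 reached control 1. The exact permutation p, not adjusted over genes, was 0.0571 for each of these 13, above 0.05 despite the limma call. Without control 1 the count of non-overlapping genes was 34, with 7.85% of all rows, and without intact 2 it was 32, with 7.83%. Every vasectomised array was below every control in Mad2l1 alone, where 3.62% of all rows showed this.

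The control group varied most. The median SD over 4 controls was 0.90 on the log2 scale for these genes, against 0.36 for intact and 0.35 for vasectomised arrays, and the medians over all rows were 0.15, 0.11 and 0.11. The control SD was above both mated SDs in 35 of 36 genes (52.3% of all rows). The range over controls was more than 1 in 34 genes (4.42% of all rows), with a median of 1.89 and a greatest value of 2.79 for Bub1.

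**Figure D3:**
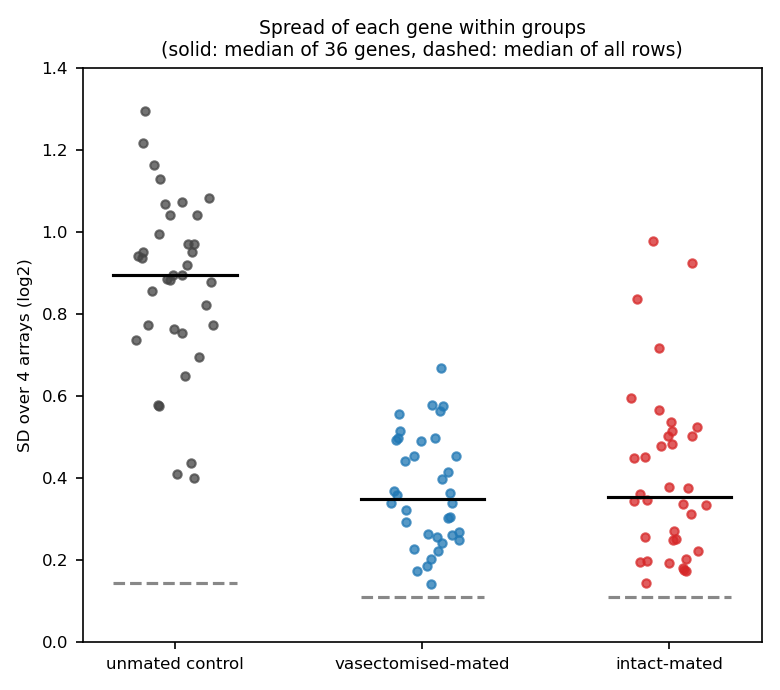
Standard deviation over the 4 arrays of a group (vertical axis, log2 units) for each of the 36 genes, by group. Solid lines mark the median of the 36 genes and dashed lines that of all rows. Control values centre on 0.90 and those of both mated groups near 0.35.

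The control pools kept much the same ranks. Controls 2 and 4 were the 2 highest in 36 of 36 (16.1% of all rows), control 1 was the lowest in 36 of 36 (23.1%), and control 3 lay between. Of the upper pair, control 4 was above control 2 in 32 genes, and below it in Top2a, Nuf2, Incenp and Kif23. The mean over the 36 genes was 7.41, 9.04, 8.02 and 9.26 in controls 1 to 4, 6.64, 7.43, 6.65 and 6.71 in intact 1 to 4, and 7.43, 6.99, 7.22 and 7.79 in vasectomised 1 to 4. Control 1 thus fell within the vasectomised range, and intact 2 stood level with control 1. In single genes control 1 was at or below the highest vasectomised array in 35 of 36, as in 78.9% of all rows, and control 3 in 5 of 36.

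Mated pools also kept an order. Intact 2 was the highest intact array in all genes but Melk and Spc25 (34 of 36, with 20.4% of all rows), vasectomised 4 the highest vasectomised array in all but Melk and Mad2l1 (34 of 36, with 24.3%), and vasectomised 2 the lowest in 31 of 36 (24.1%). The labels give nothing beyond the replicate number that separates the pools of a group, and the source of these ranks was not tested. Group means ran from control over vasectomised to intact in 33 genes (17.9% of all rows), the exceptions being Spc25, Incenp and Kif23.

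Over the 12 arrays the 630 gene pairs had a median Pearson r of 0.969, from 0.244 to 0.997. After the group means were subtracted the median was 0.949, from 0.395 to 0.996. The points share their arrays, and group differences enter the first value. Melk, with r of 0.666 to the mean of the other genes, Incenp with 0.715, Spc25 with 0.731 and Kif23 with 0.772 had the lowest values over the 12 arrays. With group means subtracted the lowest were Melk with 0.58, Mad2l1 with 0.766 and Spc25 with 0.809, and Incenp had 0.957 and Kif23 0.954.

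Between the mated groups 34 of the 36 genes were lower after intact mating, where 50.5% of all rows were, and the median difference was -0.55. None was called, where 0.402% of all rows were called lower and 0.394% higher. The variance behind these calls was shared by all 3 groups, controls included. With only the 2 mated groups fitted, Spc25 alone was called lower (limma adjusted p 0.0177), where 0.562% of all rows were. Spc25, Ccnb2, Ube2c and Nusap1 had an unadjusted limma p under 0.05, 4 of 36 (10.2% of all rows for lower levels). For Ccnb2 the difference was -0.95 (SE 0.35, adjusted p 0.189), for Nusap1 -0.96 (SE 0.43, adjusted p 0.271), for Mki67 -0.99 (SE 0.49, adjusted p 0.327) and for Ube2c -0.71 (SE 0.28, adjusted p 0.216).

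Related lists of genes were set beside these. A list of 79 other mitotic genes, 76 measured, held condensins, further kinetochore and spindle genes. After intact mating 37 of 76 were lower and none higher, with a median of -0.96, and after vasectomised mating 2 were, Ckap2l and Cks2, with a median of -0.75. Of all rows 1.55% were lower after intact and 0.439% after vasectomised mating. The widest changes after intact mating were those of the condensin subunit Ncapg (-2.04, limma adjusted p 0.00652), the kinetochore scaffold Knl1 (-2.03, 0.00833), Racgap1 of the central spindle (-1.85, 0.0183) and the spindle pole gene Aspm (-1.71, 0.00611). Both counts rested on single arrays: without control 1 they were 61 and 47 of 76, where 1.68% and 0.866% of all rows were lower. The count after intact mating was 13 to 17 without control 2, control 4, intact 1, intact 3 or intact 4, where 1.14% to 1.47% were. The mean of this list on each array followed that of the 36 genes with r of 0.993 after group means were subtracted.

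DNA replication genes, which act earlier in the cycle, had smaller medians. Of 39 measured, 4 were lower after intact mating (Rrm1, Mcm4, Mcm6 and Rfc4) and 4 after vasectomised mating (Rrm1, Mcm2, Mcm3 and Pole2), those outside the widest changes being named after their values were seen. The medians were -0.46 and -0.60. Rrm1, a ribonucleotide reductase subunit, read 9.31, 10.56, 9.65 and 10.59 in controls, 8.66, 9.37, 8.63 and 8.58 after intact mating, and 9.11, 8.80, 8.81 and 9.05 after vasectomised mating. It was lower in both (-1.22, limma adjusted p 0.0135, and -1.08, adjusted p 0.0454). Each count of 4 was 10 or 11 without control 1. The count after intact mating was 11 without intact 2 and 1 or 2 without any other array except control 3, and that after vasectomised mating was 7 without intact 2, 6 without control 3 and 0 without any other array. Between the mated groups 33 of 39 replication genes were higher after intact mating, with a median of 0.10, where 34 of 36 mitosis and spindle genes were lower, and none of either list was called. The replication value rested on intact 2: without that array 14 of 39 were higher and 25 lower, with a median of -0.05, and 34 of 36 mitosis and spindle genes were lower, with a median of -0.75.

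Among 20 regulators of cell cycle transcription only Foxm1, which drives late cell cycle genes, was called, and after intact mating alone (-1.09, limma adjusted p 0.0364, against -0.88, adjusted p 0.127, after vasectomised mating). It read 7.17, 8.52, 7.69 and 8.68 in controls, 6.75, 7.42, 6.67 and 6.87 in intact arrays, and 7.44, 6.83, 6.99 and 7.28 in vasectomised arrays, with control 1 lowest and controls 2 and 4 highest, as in the 36 genes. E2f8 had -1.08 and -1.27 with adjusted p of 0.154 and 0.137. Cyclin E2, Ccne2, was lower in both comparisons (-0.96, adjusted p 0.0223, and -1.02, adjusted p 0.0321), the single call among 9 G1 cyclins and kinases. Of 15 CDK inhibitors and antiproliferative genes, Cdkn2c was lower (-0.94, adjusted p 0.000776) and Btg2 higher (0.59, adjusted p 0.000769) after intact mating. The calls of Foxm1 and of Ccne2 after intact mating were lost without control 2, control 4, intact 1, intact 3 or intact 4. The call of Ccne2 after vasectomised mating was lost without control 2, 3 or 4 or any vasectomised array, and that of Btg2 without control 2, control 4, intact 1 or intact 2. None of 16 core subunits and partners of the anaphase-promoting complex was called by limma in any comparison, where 4, 5 and 2 had an unadjusted p under 0.05. Of all rows 1.55% were called lower and 1.95% higher after intact mating. The shares were 0.439% and 0.987% after vasectomised mating, and 0.402% and 0.394% between the mated groups.

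**Figure D4:**
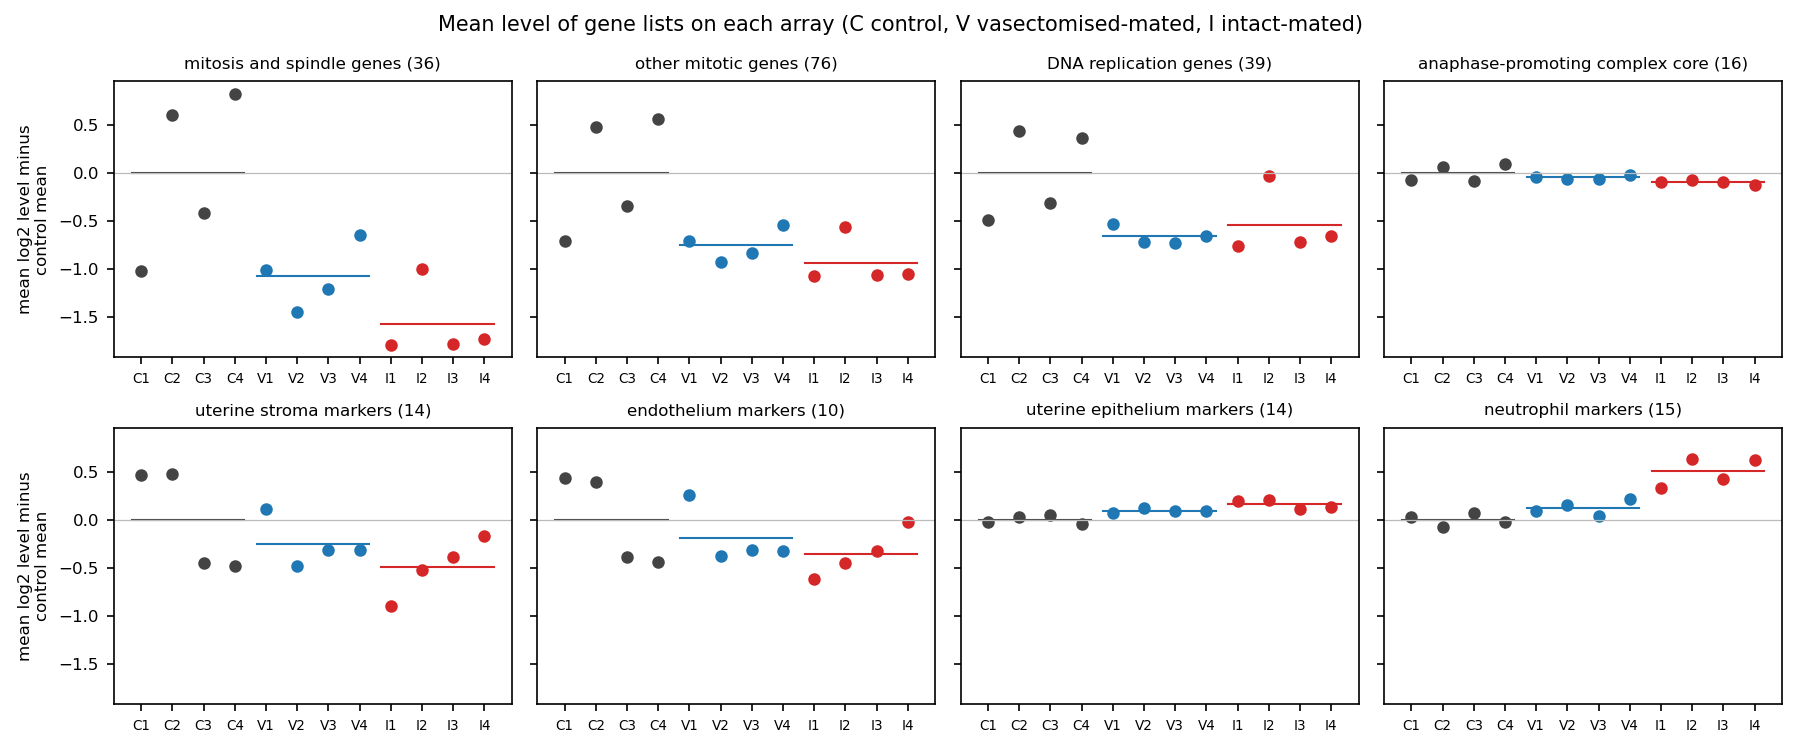
Mean log2 level of 8 gene lists on each array minus the mean of the controls (vertical axis), with C, V and I for control, vasectomised-mated and intact-mated arrays, bars at group means and the number of genes in brackets. The mitosis and spindle genes span 1.85 among controls, with controls 2 and 4 high, while stroma and endothelium markers are high in controls 1 and 2.

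Genes outside the list whose profile over the 12 arrays was most like the mean of the 36 were Cip2a, Racgap1 and Knl1 (r of 0.996 each), then Iqgap3, Kif20b, Spag5, Prr11, Kif22, Cep55 and Depdc1a (0.990 to 0.995). Of these 10, 8 were in the list of other mitotic genes. Most opposed were Frmpd3 (-0.945), Tmem45b (-0.937), Vegfa (-0.933), Galnt6 and Slc26a9 (-0.93 each). Because they were chosen by this profile, their direction between groups is fixed by the choice.

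Markers of cell types that an endometrial scrape can hold were read on the same arrays. The 14 epithelium markers averaged 11.53 to 11.63 in controls and 11.65 to 11.78 in mated arrays, with Prom1 and Ehf called higher after intact mating. In that comparison 9 of the 14 were above 0 and 5 below, with a median log2 fold-change of 0.06. The mean of 14 stroma markers was 9.72, 9.74, 8.81 and 8.78 in controls 1 to 4, 8.36 to 9.09 in intact arrays and 8.78 to 9.37 in vasectomised arrays. Of the 14, 2, Lum and Col1a1, were called lower after intact mating, where 1.55% of all rows were (6 without control 4, and 1 or 2 without any other array). All 14 stroma log2 fold-changes after intact mating were below 0, with a median of -0.53, and 9 had an unadjusted limma p under 0.05. After vasectomised mating 13 of 14 were below 0, with a median of -0.32. The 10 endothelium markers, none called, averaged 8.20, 8.16, 7.38 and 7.32 in controls 1 to 4, 7.14 to 7.74 in intact arrays and 7.39 to 8.02 in vasectomised arrays. All 10 were below 0 after intact mating (median -0.25) and 9 of 10 after vasectomised mating (median -0.12). The macrophage markers averaged 8.36, 8.39, 7.68 and 7.50 in controls 1 to 4. Controls 1 and 2 were thus high for stroma, endothelium and macrophage markers, and controls 2 and 4 for the mitosis and spindle genes. With group means subtracted, the mean of the 36 genes had r of -0.151 with the stroma mean, -0.216 with the endothelium mean, -0.01 with the epithelium mean and 0.04 with the neutrophil mean over 12 arrays. The other marker lists had r of -0.647 (13 T and NK cell genes), -0.53 (3 red cell genes), -0.436 (8 oviduct and ovary genes), -0.371 (10 sperm and testis genes), -0.173 (12 macrophage genes), -0.156 (8 B and plasma cell genes) and 0.121 (10 smooth muscle genes), and 10 reference genes had 0.696. Without that subtraction, group differences enter r. It was then -0.71 for epithelium, -0.637 for neutrophil, 0.325 for stroma and 0.215 for endothelium markers. The other marker lists then had -0.305 (T and NK cell), -0.349 (red cell), -0.163 (oviduct and ovary) and -0.423 (sperm and testis). Macrophage markers had 0.024, B and plasma cell markers 0.105, smooth muscle markers 0.201 and reference genes 0.187. Neutrophil markers averaged 6.98 to 7.12 in controls, 7.10 to 7.27 in vasectomised arrays and 7.39 to 7.69 in intact arrays, with 4 of 15 higher after intact mating, led by the chemokine receptor Cxcr2 (2.25, limma adjusted p 0.000162). In that comparison 1.95% of all rows were higher. The part of cell makeup in the results was not tested.

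**Figure D5:**
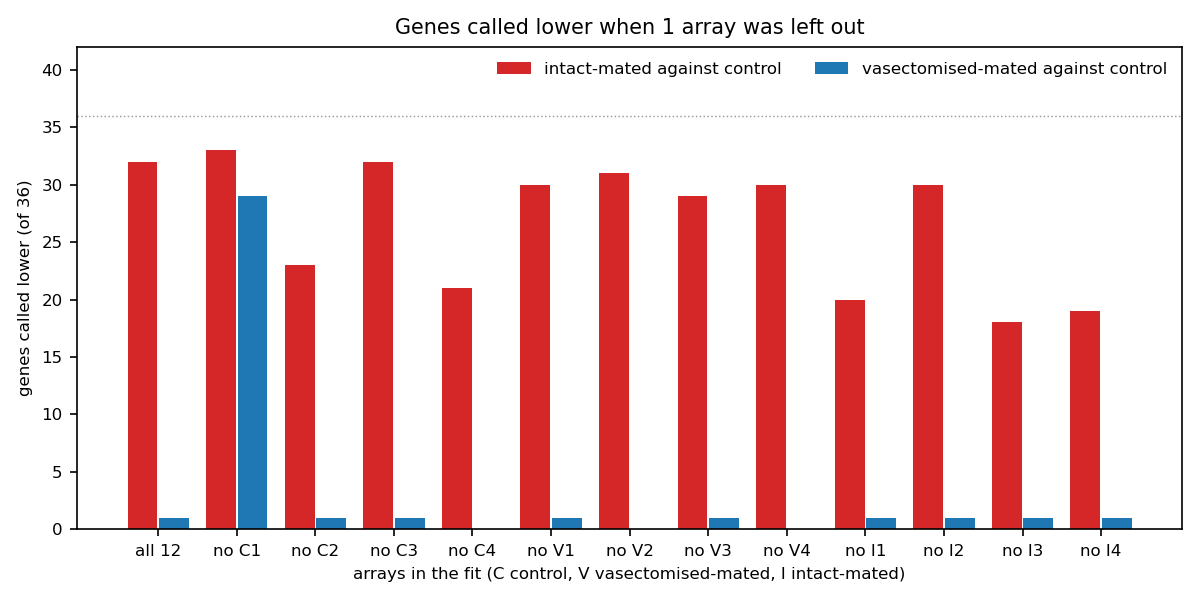
Number of the 36 genes called lower (vertical axis) with all 12 arrays and with each array left out in turn, after intact mating (red) and vasectomised mating (blue). The blue count is 0 or 1 in every fit but that without control 1, where it is 29, and the red count runs from 18 to 33.

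Leaving out each array in turn, the intact-mated count ran from 18 to 33 of 36. It was 18 without intact 3, 19 without intact 4, 20 without intact 1 and 21 without control 4, and the median log2 fold-change stayed between -1.98 and -1.40. The vasectomised-mated median ran from -1.46 without control 1 to -0.81 without control 4.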

How the data were processed

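Groups came from the sample labels. Per the labels and the methods, 300 ng of RNA per pool was labelled, and the authors imported the scans into Partek with RMA background correction, correction for probe GC content and mean probe summarization. The deposited values are log2 expression. The version of Partek was not given in the sources used here. Array medians of 7.25 to 7.32 and correlations of at least 0.98 within groups were left as deposited, and the number of arrays limits the precision. Per-array columns not used numbered 0.

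Of 35556 rows the annotation gave 21789 rows 1 symbol, 1621 several and 12146 none. The fold-changes are differences of group means of these values. limma (version 3.58.1 under R 4.3.3) was fitted to all rows and all 12 arrays with 1 mean a group (9 residual and 3.26 prior degrees of freedom), and Benjamini-Hochberg adjustment ran over all rows. The exact permutation test was two-sided. The code of the fit was run on simulated rows with independent noise and equal spread in all groups. The genes here vary together and spread most in controls, so that run does not cover them.

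The members, their roles and the other lists were chosen with earlier results of these data known. Within each role the genes with the widest and the narrowest change after intact mating are given array by array. Of each other list up to 4 genes by that change and 2 by the change after vasectomised mating are named, besides genes that explain a small count. Alternatives were quantile normalization, median centring, other variance models, array weights, a replicate block, only the groups compared, row filters, other fold thresholds and leaving out each array. Promoters are from RefSeq (GRCm38.p6), where TTTGAA and CCAAT were searched on both strands.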

Additional observations from a re-analysis of the deposited data

Results flagged for a closer look

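Values were looked at again where the highest or lowest of 4 arrays stood far from the other 3 by Dixon's test. This happened in 8 of 111 groups of values. For a single group chance gives about 1 in 20. The genes share their arrays and vary together, so the groups are not independent and the count cannot be set against that rate. In 6 of the 8 it was intact 2, above the other intact arrays. Intact 2 read 8.96 for Ccnb2 (others 8.01 to 8.14), 8.15 for Top2a (6.39 to 6.55), 9.74 for Mad2l1 (8.66 to 8.70), 6.05 for Nuf2 (5.30 to 5.42) and 6.97 for Prc1 (5.97 to 6.08), and the mean over the 36 genes was 7.43 there (6.64 to 6.71). The other 2 were vasectomised 4, with 7.50 for Cenpe (6.47 to 6.59) and 8.50 for Spc25 (7.94 to 8.03). The test looks for 1 array far from the other 3. With controls 2 and 4 both high in all 36 genes, it could hardly flag a control. None was flagged, although the controls spread most.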

How the results depend on the processing

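The 36 genes kept a negative median in each of the 3 comparisons under every alternative run. The 32 genes lower after intact mating became 18 without variance moderation, 20 with only the 2 groups fitted and 16 of the 19 left when dim rows were dropped, where fewer genes were tested, and 18 to 33 when 1 array was left out. Of the rows fitted, 1.09%, 1.19% and 2.35% were lower in those fits in turn, and 1.14% to 1.75% with 1 array left out. The gene called after vasectomised mating became 0 without moderation, 2 (Mad2l1 and Ndc80) with rows of 1 symbol or 1 row per gene, and 0 to 29 when 1 array was left out (29 without control 1, 0 without control 4, vasectomised 2 or vasectomised 4). The shares of rows fitted were 0.236%, then 0.785% and 0.833%, and 0.264% to 0.866% with 1 array left out. Between mated groups the count lower, 0 at first, was 1 (Spc25) with array weights, group-specific variances, only the 2 groups, no dim rows, rows of 1 symbol or 1 row per gene, and 0 to 1 when 1 array was left out. In these fits 0.321% to 0.804% of rows were lower, and 0.163% to 0.782% with 1 array left out. The 19 non-overlapping genes became 0 when a gap of 0.58 was required, and 19 to 34 when 1 array was left out. The share of all rows was 6.18% to 9.31% with 1 array left out. It was not counted for the gap of 0.58, so that 0 has no share beside it. The cause of these shifts was otherwise not tested.

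Single values changed sign 4 times: Spc25 after vasectomised mating gave -0.12 without control 1 and -0.07 without vasectomised 4 (-0.12 to 0.22 over the arrays left out), and Melk between mated groups gave 0.037 without intact 4 and 0.019 without vasectomised 3 (-0.12 to 0.037). Over all rows, same-numbered arrays did not deviate together (r of -0.26 to 0.21). Such values cannot show whether same-numbered pools shared a day or batch. A replicate block gave 32, 1 and 0 calls. The spread among controls enters both comparisons with controls. Through the variance that the 3 groups share in the fit, it also enters the comparison of the mated groups. Its part in the counts was not tested.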

Other observations

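Genes known to respond to estrogen in the uterus were read on the same arrays. Of 20 measured, 6 were lower and 4 higher after intact mating, where 1.55% and 1.95% of all rows were. After vasectomised mating 3 were lower and none higher, where 0.439% and 0.987% of all rows were. The list went both ways. After intact mating 12 of 20 were above 0 (median 0.13), and after vasectomised mating 11 were (median 0.09). The widest falls were those of Greb1 (-2.52, limma adjusted p 4.65e-06, and -1.77, adjusted p 0.000351, after intact and vasectomised mating), Aqp8 (-2.48, adjusted p 0.000199, and -1.33, adjusted p 0.026), the progesterone receptor gene Pgr (-2.00, adjusted p 3.38e-05, and -1.34, adjusted p 0.00229) and Igf1 (-1.55, adjusted p 0.00852, and -1.08, adjusted p 0.0845).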
